A study of Homo sapiens with 6 samples.

Results

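The genes described here encode 10 secreted chemokines and inflammatory cytokines: CXCL1, CXCL2, CXCL3, CXCL8, CCL2, CCL20, IL6, IL1A, IL1B and LIF. They were chosen by symbol, and each of the 10 had 1 row among the 31348 genes of the table. The cells were TPC1, a line from a human papillary thyroid cancer that carries a RET rearrangement, and they received an siRNA against SRPX2 (si-SRPX2, 3 libraries) or a control siRNA (si-Control, 3 libraries) before RNA sequencing. SRPX2 encodes a secreted sushi-repeat protein, and the comparison was made to find transcripts that depend on it. All 6 libraries came from wild-type cells of this 1 line, and a single siRNA sequence was used against SRPX2. By the study's methods the replicates were separate biological repeats. The labels give day 2, an adipogenic differentiation treatment and DMEM for every sample, whereas the methods describe plain transfection, another collection time and RPMI medium, so the groups were taken from the sample titles. Same-numbered libraries are called a pair, and no source says what a replicate number marks.

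The si-SRPX2 libraries held 68424105 to 75828542 counted reads and the si-Control libraries 63824315 to 73439682. SRPX2 itself was counted 140, 157 and 263 times in si-SRPX2 replicates 1, 2 and 3, against 243, 335 and 308 times in si-Control. Within the pairs the si-SRPX2 to si-Control ratio of SRPX2 was 0.490, 0.480 and 0.865, and the 95% interval of the last, 0.731 to 1.02 from counting error only, included 1. SRPX2 was thus lower beyond counting error in pairs 1 and 2 and not distinguishable from it in pair 3. Its mean FPKM was under the filter used for testing, and in a fit of all genes it was not called between the groups. The log2 fold change was −0.71 with the siRNA alone (unadjusted p = 0.0683, edgeR). With the replicate number in the fit it was −0.76 (unadjusted p = 0.0219, adjusted p = 0.835, edgeR). On the first principal component, with 51.1% of the variance, the replicate 2 libraries of both groups lay far from the other 4. Of 7 thyroid markers, the transcription factor PAX8 had a mean of 91.1 FPKM (reads scaled to transcript length and to library size) and FOXE1 11.2, thyroglobulin (TG) was under the filter at 0.137, and 4 had no row and were not analysed here. Summed macrophage and leukocyte markers reached 5.46 to 14.3 FPKM over the 6 libraries, mostly CD68, fibroblast markers 2.74 to 9.06, mostly LUM, and endothelial markers 0.0627 to 0.148. RNA was taken from whole cultures, so fewer expressing cells and less RNA per cell cannot be told apart.

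Chemokines are small secreted proteins that draw leukocytes along a gradient, and they are named by the spacing of their first cysteines. CXCL1, CXCL2, CXCL3 and CXCL8 attract neutrophils through the receptors CXCR1 and CXCR2, CCL2 attracts monocytes through CCR2, and CCL20 attracts CCR6-bearing lymphocytes and dendritic cells. IL6 and LIF signal through the shared receptor chain gp130, and IL1A and IL1B through the interleukin-1 receptor. Many of these genes are switched on by NF-kappaB, often together with AP-1 or C/EBP factors, and their mRNAs are short-lived. Rearranged RET is known to drive a chemokine programme in thyroid cells, and CXCL8 and IL6 are among the cytokines that thyroid carcinoma cells release.

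The NF-kappaB letters in the promoters are shown first, because they are what most of these genes share in sequence. RefSeq promoter windows of 300 bases (250 before and 50 after the annotated start, build GRCh38.p14) were at hand for 8 of the 10 genes, all except CCL2 and LIF. The letters GGNNTTTCC, read on both strands, lay in the windows of 6 genes, against 6.26% of 35116 windows of that length in the whole table. Each stretch below runs 5′ to 3′ on the gene's strand for 99 bases, with the match in capitals and 45 bases on each side.
CXCL1, chr4:73869270-73869368, plus strand: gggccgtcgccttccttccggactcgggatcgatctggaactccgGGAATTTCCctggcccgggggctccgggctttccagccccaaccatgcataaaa
CXCL2, chr4:74099219-74099317, minus strand: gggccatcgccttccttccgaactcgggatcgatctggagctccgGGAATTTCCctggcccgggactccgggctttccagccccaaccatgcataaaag
CXCL3, chr4:74038714-74038812, minus strand: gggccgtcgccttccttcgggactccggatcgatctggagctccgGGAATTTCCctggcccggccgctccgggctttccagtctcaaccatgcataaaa
CXCL8, chr4:73740433-73740531, plus strand: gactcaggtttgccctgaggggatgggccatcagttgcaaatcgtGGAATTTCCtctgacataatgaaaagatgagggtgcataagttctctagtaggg
IL6, chr7:22727083-22727181, plus strand: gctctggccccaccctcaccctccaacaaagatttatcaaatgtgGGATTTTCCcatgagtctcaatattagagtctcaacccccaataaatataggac
CCL20, chr2:227813718-227813816, plus strand: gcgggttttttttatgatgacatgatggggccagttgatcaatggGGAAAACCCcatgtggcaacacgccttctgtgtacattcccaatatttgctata

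CXCL1, CXCL2, CXCL3 and CXCL8 carried the identical 9 letters GGAATTTCC, at positions -78, -77, -78 and -91 from the start. In CXCL1, CXCL2 and CXCL3 a second match, GGGCTTTCC, began at -53 and is in lower case above. IL6 had GGATTTTCC at -72, and the CCL20 match, at -79, was on the opposite strand. The aligned windows of CXCL1 and CXCL3 were identical in 82.5% of columns, those of CXCL2 and CXCL3 in 73.8% and those of CXCL1 and CXCL2 in 71.9%, against 43.97% to 52.6% for all other pairs of these genes. The AP-1 letters TGANTCA, read the same way, lay in CXCL8 at -137 and in IL1A at -105 and -55, against 7.71% of all windows, and they overlapped no NF-kappaB match. The 8 genes had 9 windows, as IL1A had 2 annotated starts. In the other IL1A window the AP-1 letters began at -12 and 38. The window of IL1B held neither. A match is a string of letters, not a measured binding site.

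**Figure D1:**
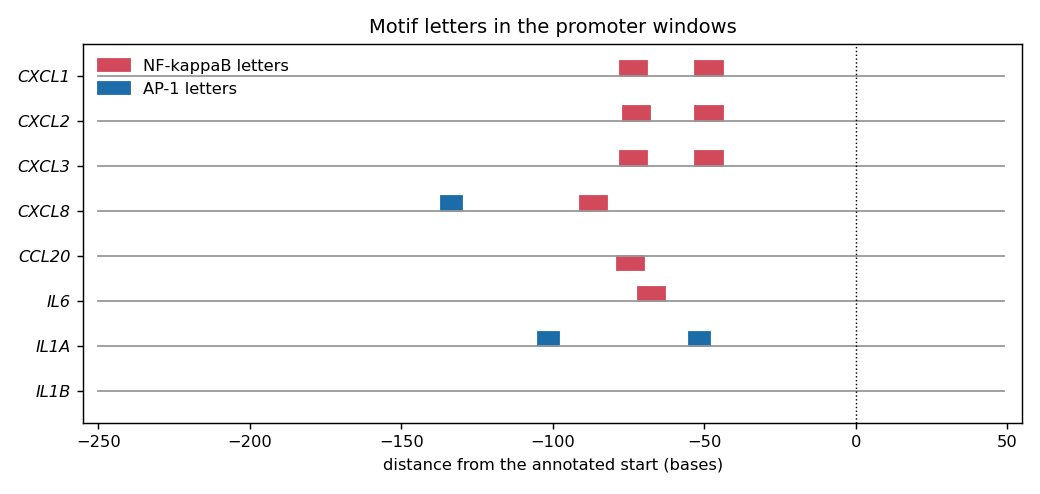
Positions of the NF-kappaB letters (red) and AP-1 letters (blue) in the promoter windows of 8 genes, by distance in bases from the annotated start; boxes above a line are on the gene's strand and boxes below it on the other. The NF-kappaB letters of CXCL1, CXCL2, CXCL3, CXCL8, IL6 and CCL20 lie between -91 and -45 bases from the start, the AP-1 letters of CXCL8 begin at -137, and IL1B has none.

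Per transcript length, CXCL1 had the highest level of the 10, above IL6 in 6 of 6 libraries, and CCL20 the lowest mean. The mean over the 6 libraries was 141 FPKM for CXCL1, 36.8 for IL6, 27.3 for CXCL8, 27.2 for CXCL2, 17.8 for LIF and 13.4 for CCL2. It was 1.12 for CXCL3, 0.912 for IL1A, 0.446 for IL1B and 0.221 for CCL20. CXCL1 ranked between 98th and 695th of the 31348 genes, depending on the library. In this order the ranges of neighbours over the libraries overlapped except for CCL2 (4.81 to 30.4 FPKM) and CXCL3 (0.581 to 1.76), so the order holds as a division into 6 abundant and 4 scarce transcripts. A mean of at least 0.5 FPKM was required for testing, which 13317 genes passed. CCL20 and IL1B did not, and their values come from a fit of all genes without that filter.

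**Figure D2:**
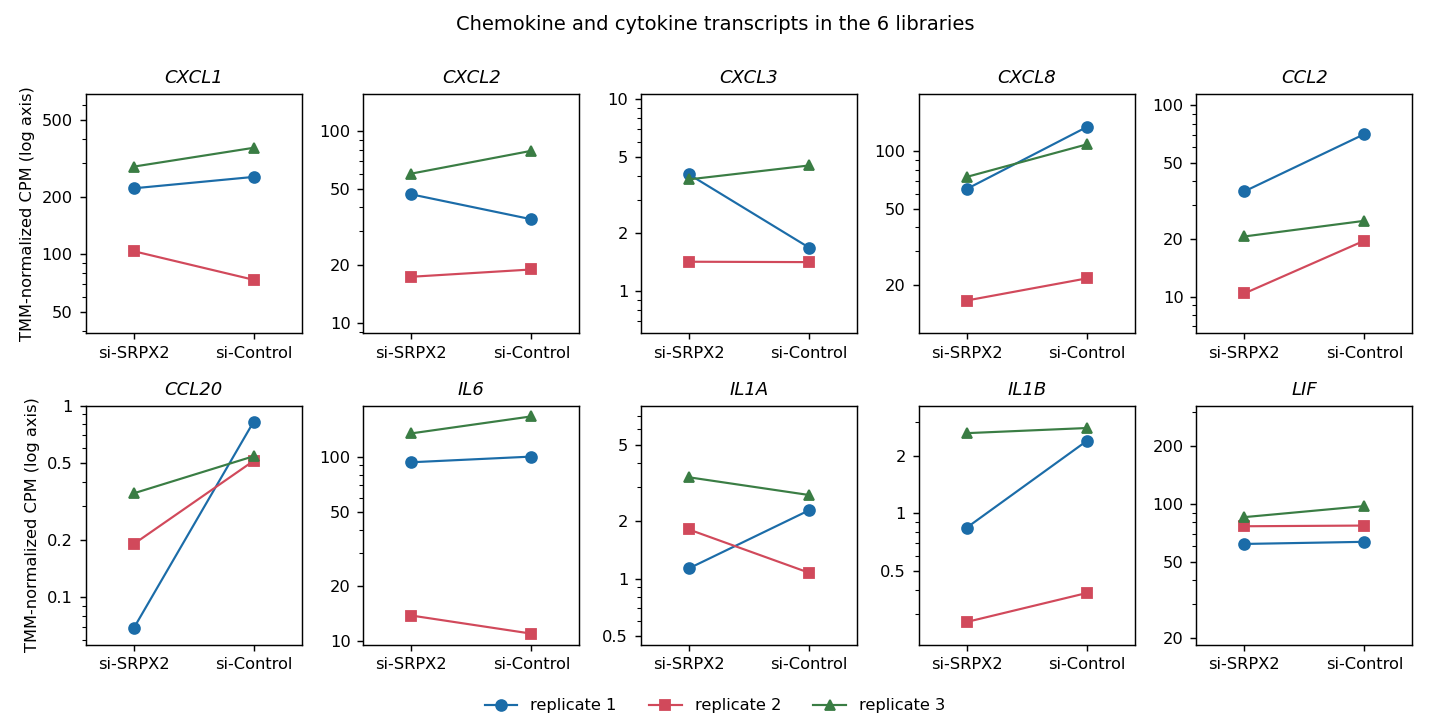
CPM after TMM normalization (reads scaled to the library's size, on log axes that each cover their own range) of the 10 genes in si-SRPX2 (left) and si-Control (right) libraries; lines join libraries of the same replicate number. Both replicate 2 libraries (red squares) lie lowest for CXCL1, CXCL2, CXCL3, CXCL8, CCL2, IL6 and IL1B, and for CCL20 alone all 3 si-SRPX2 values lie below all 3 si-Control values.

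Between si-SRPX2 and si-Control no gene of the 10 passed the test. This was edgeR's quasi-likelihood test with the siRNA alone, which left the spread between replicate numbers in the error. It called 0 of the 8 tested at an adjusted p of 0.05, and 0 of all 13317 genes (0%). At an unadjusted p under 0.05 there were 0 of the 8, against 66 of all tested genes (0.496%), and DESeq2 called 0 of the 8 and 3 genes in all. The median log2 fold change of the 8 was −0.13, against −0.01 over all tested genes. Between replicate numbers the picture was different. The replicate number test, which did take the siRNA into account, called 7 of the 8, all but IL1A, against 7352 of the 13317 genes (55.2%). These p-values set the spread between replicate numbers against the spread left within pairs.

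CXCL1 lies on chromosome 4 from 73869393 to 73871308 on the plus strand of GRCh38, next to the other CXC genes, and encodes a neutrophil attractant first described as a melanoma growth factor. Its level was 221, 104 and 286 CPM in si-SRPX2 replicates 1, 2 and 3, against 253, 73.6 and 359 CPM in si-Control. The si-SRPX2 value was the lower one in pairs 1 and 3 and the higher one in pair 2, and the groups overlapped. Group means were 204 ± 92.5 CPM in si-SRPX2 and 229 ± 144 CPM in si-Control (SD, n = 3 each), with a log2 fold change of −0.17 (standard error 0.598, adjusted p = 1.0, edgeR) that turned to 0.01 in limma on log2 FPKM. In the replicate 2 libraries CXCL1 was lower than in replicates 1 and 3, with a log2 fold change of −1.64 (standard error 0.157, adjusted p = 8.24e-05, edgeR).

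CXCL2 (chromosome 4, 74097040 to 74099195, minus strand), a close relative also known as macrophage inflammatory protein 2, stood at 46.8, 17.4 and 60.0 CPM in si-SRPX2, against 34.7, 19.0 and 79.0 CPM in si-Control. Here pair 1 was the one with the higher si-SRPX2 value, the groups overlapped, and the siRNA log2 fold change was −0.09 (standard error 0.616). The replicate 2 value lay at −1.55 on the log2 scale relative to replicates 1 and 3 (standard error 0.160, adjusted p = 0.000115, edgeR). CXCL3 (chromosome 4, 74036589 to 74038807, minus strand) was scarcer, with 4.06, 1.42 and 3.82 CPM in si-SRPX2, against 1.69, 1.42 and 4.52 CPM in si-Control. In pair 1 si-SRPX2 was higher by a ratio of 2.41 (95% interval 1.92 to 3.04 from counting error only), while pair 2 gave 1.0 and pair 3 gave 0.846, and the siRNA log2 fold change was 0.29 (standard error 0.587). Its difference between replicate 2 and the others was −1.26 (standard error 0.348, adjusted p = 0.0164, edgeR), a call that was lost without the filter (adjusted p = 0.0985), without si-SRPX2 replicate 2 (0.0736) and without si-Control replicate 3 (0.0550). The longest run of identical bases between annotated transcripts was 77 for CXCL1 and CXCL2, 97 for CXCL2 and CXCL3 and 55 for CXCL1 and CXCL3. For read length and multiply mapped reads no source used here gives a value, so reads from these stretches may have been split among the 3 genes.

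CXCL8 (chromosome 4, 73740541 to 73743716, plus strand), interleukin-8, was lower in si-SRPX2 in each pair. It had 63.5, 16.6 and 73.4 CPM in si-SRPX2, against 134, 21.7 and 108 CPM in si-Control. The ratios within the pairs were 0.475, 0.767 and 0.676, and none of their counting intervals reached 1. The replicate 2 values of both groups lay far below the rest, and the groups overlapped. Without a block for the replicate number the log2 fold change was −0.78 (standard error 0.753, adjusted p = 1.0, edgeR). With the replicate block it was −0.68 (standard error 0.117, unadjusted p = 0.000380, adjusted p = 0.238, edgeR). In the same fit CXCL8 was lower in replicate 2 than in replicates 1 and 3, with a log2 fold change of −2.26 (standard error 0.139, adjusted p = 1.3e-05, edgeR), a ratio of 4.94 between the mean CPM of replicates 1 and 3 and that of replicate 2.

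CCL2 (chromosome 17, 34255218 to 34257203, plus strand), the monocyte chemoattractant MCP-1, was the other CC or CXC gene above the filter that was lower in si-SRPX2 in each pair. Its values were 35.4, 10.4 and 20.6 CPM in si-SRPX2, against 70.4, 19.6 and 24.9 CPM in si-Control, and the groups overlapped. The pair ratios were 0.502, 0.530 and 0.829, the last with a counting interval of 0.772 to 0.889. The log2 fold change was −0.79 (standard error 0.610, adjusted p = 1.0, edgeR), and it was −0.01 without si-Control replicate 1, the library with the highest CCL2. With the replicate block it was −0.73 (standard error 0.142, unadjusted p = 0.000857, adjusted p = 0.309, edgeR). CCL2 also differed between replicates 1 and 3. It was higher in replicate 1 than in replicate 3, with a log2 fold change of 1.13 (standard error 0.174, adjusted p = 0.00556, edgeR) and lower in replicate 2 than in both together, at −1.24 (standard error 0.158, adjusted p = 0.000338, edgeR).

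CCL20 (chromosome 2, 227805739 to 227817556, plus strand) was counted 5, 14 and 24 times in si-SRPX2, against 51, 39 and 38 times in si-Control, or 0.0689, 0.190 and 0.349 CPM against 0.827, 0.516 and 0.545 CPM. It was the only one of the 10 whose groups did not overlap, a pattern with lower si-SRPX2 values that 1.65% of the tested genes showed. Those genes had passed the filter and CCL20 had not, and the share among genes at its level was not determined. The means were 0.203 ± 0.140 CPM in si-SRPX2 and 0.629 ± 0.172 CPM in si-Control (SD, n = 3 each). The fit of all genes gave it a log2 fold change of −1.63 (standard error 0.657, unadjusted p = 0.0418, adjusted p = 1.0, edgeR), where 348 of 31348 genes (1.11%) had an unadjusted p under 0.05. With the replicate block the values were −1.78 and an unadjusted p of 0.0511 (edgeR). Pair ratios were 0.0833, 0.368 and 0.640, and the counting interval of the last, 0.367 to 1.09, included 1. CCL20 was the 1 gene for which the replicate number took a small share of the spread, 8.58% of the sum of squares of log2 CPM, while the siRNA took 64.3%. No library held more than 51 of its reads.

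IL6 (chromosome 7, 22725884 to 22732002, plus strand), which drives STAT3 signalling and the acute-phase response, had 93.4, 13.8 and 134 CPM in si-SRPX2, against 100.2, 11.01 and 166 CPM in si-Control. The pairs lay close to each other and the replicate numbers far apart, so that the highest library exceeded the lowest by 15.0-fold. In the replicate 2 libraries IL6 was lower, with a log2 fold change of −3.27 (standard error 0.132, adjusted p = 5.27e-06, edgeR), which is a mean of 12.4 CPM in replicate 2 against 123 CPM in replicates 1 and 3. Only 28 of the 13317 tested genes had a more negative value in that comparison, and 0.278% of them were called with a log2 fold change under −3. The replicate number took 99.3% of the sum of squares of log2 CPM of IL6, against a median of 84.0% over all tested genes. The siRNA comparison gave −0.20 (standard error 1.04) without the block and −0.05 (standard error 0.105) with it, and pair 2 ran opposite to pairs 1 and 3, with ratios of 0.932, 1.25 and 0.809.

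LIF (chromosome 22, 30240453 to 30246759, minus strand), leukaemia inhibitory factor, was the exception to the replicate 2 pattern among the abundant genes. It had 61.8, 76.5 and 85.3 CPM in si-SRPX2, against 63.4, 77.1 and 97.4 CPM in si-Control. Replicate 2 lay between the other numbers, and its difference from their mean was 0.02 on the log2 scale (standard error 0.0640, adjusted p = 0.792, edgeR). LIF was lower in replicate 1 than in replicate 3, at −0.54 (standard error 0.0743, adjusted p = 0.00353, edgeR). Its siRNA difference was −0.09 (standard error 0.200), with pair ratios of 0.975, 0.992 and 0.876, and the counting intervals of the first and second included 1. Over the 6 libraries LIF varied 1.58-fold, and its SD of log2 CPM was at the 48.3 percentile of all tested genes, whereas the other 9 genes lay between the 90.3 and 99.2 percentiles. These percentiles are not matched in level: CCL20 and IL1B were under the filter that the tested genes had passed, and counting error is part of such an SD.

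The interleukin-1 genes were scarce. IL1A (chromosome 2, 112773925 to 112784493, minus strand), which is active inside the cell and on release from damaged cells, had 1.13, 1.80 and 3.37 CPM in si-SRPX2, against 2.27, 1.07 and 2.73 CPM in si-Control. Its pairs disagreed, at ratios of 0.498, 1.68 and 1.24, and it was the 1 tested gene of the 8 without a call for the replicate number (adjusted p = 0.104, edgeR). For replicate 2 against replicates 1 and 3 it had −0.67 (standard error 0.381, adjusted p = 0.180, edgeR), with a call without si-SRPX2 replicate 1 (−1.04, adjusted p = 0.0218) or 2 (−1.24, adjusted p = 0.0482). IL1B (chromosome 2, 112829751 to 112836816, minus strand), whose product needs cleavage by caspase-1, was counted 61, 20 and 180 times in si-SRPX2, against 147, 29 and 194 times in si-Control. Pair 1 gave a ratio of 0.353 with a counting interval of 0.257 to 0.478, while the intervals of pairs 2 (ratio 0.706) and 3 (0.940) included 1. In the fit of all genes IL1B was lower in replicate 2 than in replicates 1 and 3, at −2.58 (standard error 0.436, adjusted p = 0.0138, edgeR), where 8.08% of 31348 genes were called lower.

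**Figure D3:**
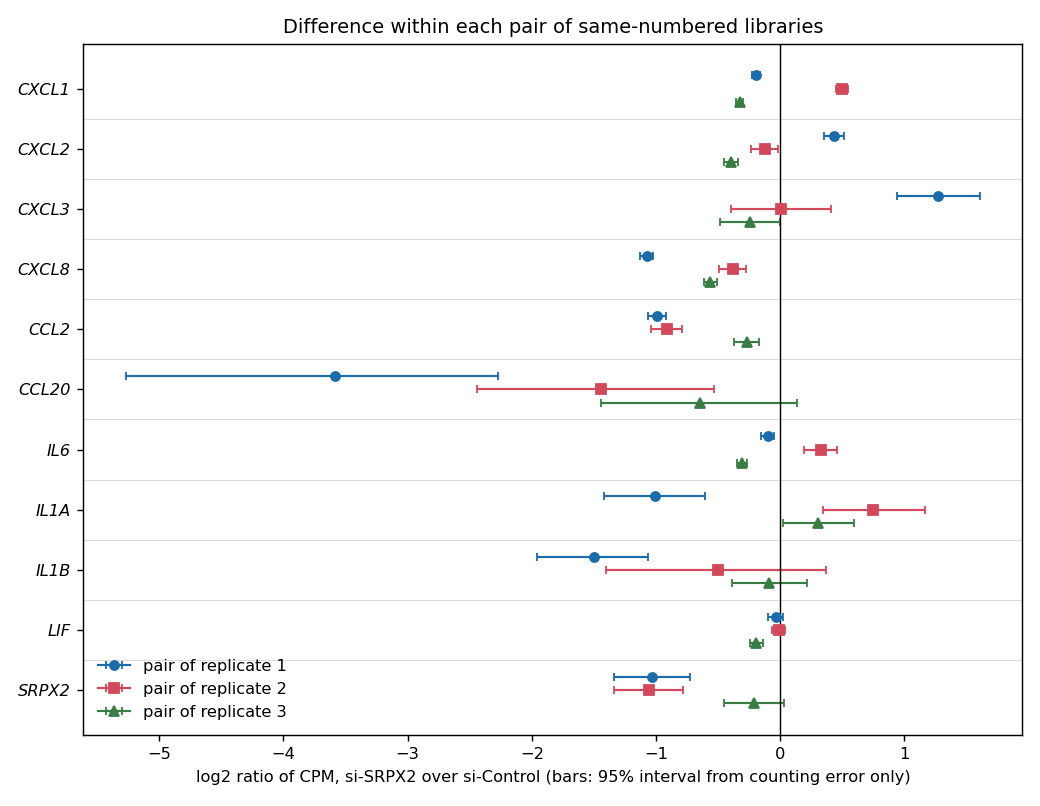
Log2 ratio of CPM, si-SRPX2 over si-Control, within each pair for the 10 genes and SRPX2, with 95% intervals from counting error only. CXCL8, CCL2, CCL20, IL1B and LIF have all 3 points below 0, while CXCL1, CXCL2, CXCL3, IL6 and IL1A have points on both sides.

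Within the pairs, 8 of the 10 genes were lower in si-SRPX2 in pair 1, 6 in pair 2 and 9 in pair 3. Of all tested genes 49.99%, 52.8% and 49.7% were lower in pairs 1, 2 and 3. The counting interval lay below 1 for 7, 4 and 7 of the 10 genes, and above 1 for 2, 3 and 1. CXCL8, CCL2, CCL20, IL1B and LIF were lower in 3 of 3 pairs, 5 of 10 genes, where 16.9% of the tested genes were. Among these 5, only CXCL8 and CCL2 had counting intervals below 1 in all 3 pairs. CCL20 and IL1B were under the filter, so the 10 are not matched in level to the tested genes, here or in the medians that follow. The pair medians over the 10 genes were −0.60, −0.07 and −0.29 on the log2 scale, and of those over all tested genes the one farthest from 0 was −0.01, in pair 2. The median size of the log2 difference, whatever its direction, was 1.0, 0.44 and 0.31 over the 10 genes in pairs 1, 2 and 3, and 0.16, 0.13 and 0.10 over all tested genes. With the replicate block, edgeR called 0 of the 8 genes and 6 of 13317 (0.0451%). At an unadjusted p under 0.05 it had 2 of the 8, CXCL8 and CCL2, against 1226 of all tested genes (9.21%, and 4.89% lower).

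The call for CXCL8 and CCL2 depended on the tool and on the pairs. DESeq2 with the replicate block called both (adjusted p = 8.78e-06 for CXCL8 and 0.000181 for CCL2) among 89 genes. In edgeR with the block, both were called without the replicate 2 pair (adjusted p = 6.28e-06 and 0.0247, 79 genes in all) and without the replicate 3 pair (0.00887 and 0.000275, 213 genes). Neither was called without the replicate 1 pair (0.185 and 0.754, 15 genes). The log2 fold change kept its direction each time, between −0.82 and −0.47 for CXCL8 and between −0.95 and −0.58 for CCL2 in these 3 fits. The other 6 tested genes were called in none of them, and all of these fits except that without replicate 2 were added after the data had been seen.

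**Figure D4:**
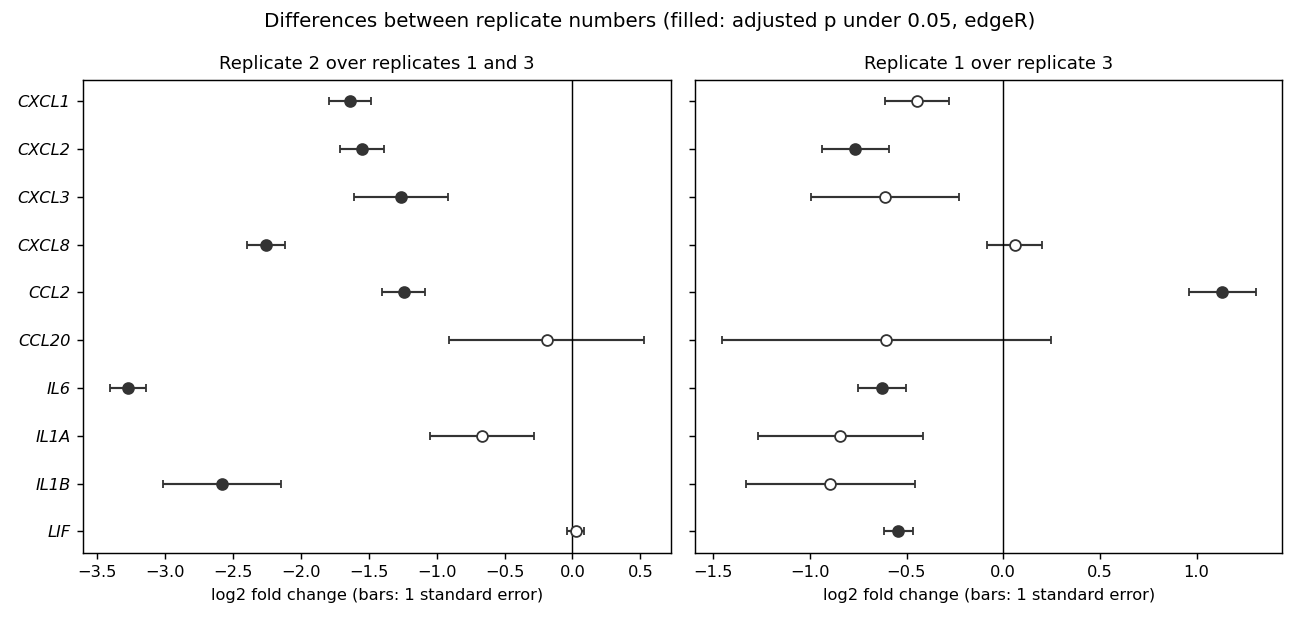
Log2 fold changes with 1 standard error of the 10 genes for replicate 2 over replicates 1 and 3 (left) and replicate 1 over replicate 3 (right), with filled points for an adjusted p under 0.05 in edgeR. On the left IL6 lies lowest at −3.27 and LIF at 0.02, and on the right CCL2 stands alone on the positive side at 1.13 among the called genes.

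Both replicate 2 libraries stood apart in most of these transcripts. Of the 8 tested, 6 were called, all lower in replicate 2 (IL6, CXCL8, CXCL1, CXCL2, CXCL3 and CCL2), against 6778 of 13317 genes (50.9%) called in either direction, 25.5% lower and 25.4% higher. The median of the 8 was −1.41 on the log2 scale and that of all tested genes −0.01. All 6 had a log2 fold change under −1, which 5.92% of tested genes had with a call. Counting all 10, both replicate 2 libraries lay below the other 4 for 7, where 27.9% of tested genes did so. The 7 include IL1B, which was under the filter that the tested genes had passed. The neutrophil attractants, CCL2, IL6 and IL1B thus shared the pattern, and LIF, IL1A and CCL20 did not. The macrophage marker sum was 9.60 FPKM in si-SRPX2 replicate 2 and 5.46 in si-Control replicate 2. In the other libraries it was 9.06 to 14.3, and it was mostly CD68. Its 2 tested markers, CD14 and CD68, were called lower in replicate 2. CSF1R, under the filter, went the other way, with 1.34 and 0.887 CPM in the replicate 2 libraries against 0.146 to 0.689 CPM in the others. PTPRC, the common leukocyte antigen, had a mean of 0.00164 FPKM. The fibroblast sum was 2.74 and 3.01 FPKM in replicate 2 against 4.63 to 9.06 in the others. Any part of such cells in the chemokine difference was not tested.

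Replicate 1 against replicate 3 split the genes. Of the 8, 4 were called: CCL2 was higher in replicate 1 (1.13), and CXCL2 (−0.76), IL6 (−0.63) and LIF (−0.54) were lower, against 2145 of 13317 genes (16.1%, with 8.81% higher and 7.30% lower). CXCL1 (−0.45, adjusted p = 0.107, edgeR) and CXCL8 (0.06, adjusted p = 0.809, edgeR) were not called. The calls of CXCL2 and IL6 were lost without si-Control replicate 1 (adjusted p = 0.0830 and 0.0580, edgeR) and without si-Control replicate 3 (0.177 and 0.135), and that of IL6 also without si-SRPX2 replicate 1 (0.0527). Without the filter LIF alone was called (adjusted p = 0.0465, edgeR), with 396 of 31348 genes in all (1.26%). CXCL1 gained a call without si-SRPX2 replicate 2 (adjusted p = 0.000437, edgeR), si-SRPX2 replicate 3 (0.0451) or si-Control replicate 2 (0.000282). Over the fits without 1 library 2 to 5 of the 8 were called, among 618 genes without si-Control replicate 3, 792 without si-Control replicate 1, 1159 without si-SRPX2 replicate 3 and up to 2838 in the others.

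Genes whose libraries followed these patterns most closely were found from the deviation of each gene's log2 CPM from its own mean over the 6 libraries. The closest to the median of the 8 genes were LHPP, a phosphatase (mean absolute difference 0.0610), MFGE8, a secreted glycoprotein that bridges dying cells to phagocytes (0.0737), SH3YL1 (0.0746), PAQR6 (0.0815), IDUA, the lysosomal iduronidase (0.0831), and SCARB2, a lysosomal membrane protein (0.0930). The median over all candidates was 0.677. Closest to CXCL8 was SOD2, the mitochondrial superoxide dismutase (0.158), and closest to IL6 was ASS1, argininosuccinate synthase (0.167). CX3CL1, the membrane-bound chemokine fractalkine, was 1 of the 2 nearest to CCL2 (0.174). CXCL1 was nearest to GABRE (0.0894), CXCL2 to RHOBTB1 (0.0949), CXCL3 to AC073957 (0.163), IL1A to ENPP4 (0.179) and LIF to LRIF1 (0.0395). Among the genes themselves CXCL1 and CXCL2 lay nearest to each other (0.251) and IL6 and LIF farthest apart (1.47). These are descriptions over 6 libraries that share 3 replicate numbers.

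Receptor genes of these proteins went both ways in replicate 2. Of 13 listed receptors and antagonists 8 had a row and 5 passed the filter, while CXCR1, CXCR2, ACKR1, CCR2 and CCR6 had none and were not analysed here. IL1R1, the signalling interleukin-1 receptor, had 57.6, 20.4 and 42.0 CPM in si-SRPX2, against 82.9, 24.0 and 50.4 CPM in si-Control, and was lower in replicate 2, at −1.35 (adjusted p = 1.87e-05, edgeR). IL1RAP, its accessory chain, went the other way, with 20.2 and 18.5 CPM in the replicate 2 libraries against 10.6 to 12.2 CPM in the others. LIFR was lower in replicate 2, at −0.74 (adjusted p = 0.00214, edgeR), and IL6ST, which encodes gp130, had −0.12 (adjusted p = 0.140). In this comparison 3 of the 5 were called lower and 1 higher, where 25.5% of all 13317 tested genes were called lower and 25.4% higher. In the siRNA comparison with the block 0 of the 5 were called, and 6 of all 13317 tested genes (0.0451%).

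Most of the other tested chemokines and cytokines were also lower in replicate 2. CXCL16 (−1.55) and CX3CL1 (−0.93) were the 2 other chemokines tested of 18 listed, and both were called lower. CX3CL1 had 1.54 and 3.02 CPM in the replicate 2 libraries (si-SRPX2 first). It had 5.07 and 8.28 CPM in replicate 1 and 2.49 and 2.78 CPM in replicate 3, so replicate 2 overlapped replicate 3. Over all 13317 tested genes 25.5% were called lower in this comparison and 25.4% higher. Of 11 other cytokines tested 8 were called lower and 0 higher, TNF among them with 1.64 and 3.57 CPM in the replicate 2 libraries against 4.63 to 11.4 CPM in the others (−1.77, adjusted p = 0.000292, edgeR). IL32 (−1.23) and the macrophage colony-stimulating factor CSF1 (−1.10) were lower too. MIF, an abundant cytokine at 385 FPKM, had 0.09 (adjusted p = 0.203, edgeR). The granulocyte-macrophage factor CSF2 was called lower at −0.69, but its replicate 2 libraries, at 3.33 and 3.78 CPM (si-SRPX2 first), lay close to replicate 1. It had 3.04 and 3.70 CPM in replicate 1 and 8.85 and 10.9 CPM in replicate 3. TNF was also lower in si-SRPX2 in each pair, with 4.63, 1.64 and 9.29 CPM in si-SRPX2, against 9.61, 3.57 and 11.4 CPM in si-Control, which gave −0.81 with the block (unadjusted p = 0.00278, adjusted p = 0.388, edgeR).

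Of 15 tested genes listed as NF-kappaB subunits, inhibitors and feedback regulators, 7 were called lower in replicate 2 and 1, NFKBIB, higher. The median of the 15 was −0.24. Over all tested genes 50.9% were called, 25.5% lower and 25.4% higher. NFKBIA, the inhibitor IkB-alpha, had 31.6 and 45.9 CPM in the replicate 2 libraries against 65.8 to 120 CPM in the others (−1.35, adjusted p = 2.49e-05, edgeR). NFKBIZ (−1.49), which in mouse is known to be needed for Il6 induction, BIRC3 (−1.47) and TNIP1 (−0.76) were lower by the same test. Of 13 tested genes listed as NF-kappaB effectors 6 were called lower and 3 higher, with the acute-phase gene SAA1 (−4.24), complement C3 (−2.29) and SOD2 (−2.25) among the lower ones. Their median was −0.13, against −0.01 over all tested genes.

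Among AP-1 and C/EBP factors 7 of 9 tested were called lower in replicate 2 than in the mean of replicates 1 and 3, and 2 higher. Not all 7 had both replicate 2 libraries below all the others. CEBPB, also called nuclear factor for IL6, had 33.0 and 40.4 CPM in the replicate 2 libraries against 79.9 to 102 CPM in the others (−1.36, adjusted p = 7.96e-06, edgeR), and CEBPD had −1.66. JUND had −0.53, but its replicate 2 libraries, at 86.1 and 88.9 CPM (si-SRPX2 first), lay close to replicate 1. It had 94.1 and 92.1 CPM in replicate 1 and 170 and 175 CPM in replicate 3. FOSL1, a FOS-family subunit of AP-1, was higher in replicate 2 at 1.10 (adjusted p = 0.000373, edgeR). Of 10 tested regulators of mRNA decay 4 were called lower and 3 higher, again beside 25.5% lower and 25.4% higher of all tested genes. ZC3H12A, the endonuclease regnase-1, known from mouse to cut the Il6 mRNA, was lower at −1.42, ZFP36L1 was lower at −0.80, and HNRNPD was higher at 0.65. Of 13 genes for release and signalling of interleukin-1, 6 were called lower and 4 higher, beside the same shares of all genes: CASP1, which cleaves the IL1B precursor, had −2.12, while the inflammasome sensor NLRP3 had 1.43 and the kinase IRAK1 had 1.18. Between si-SRPX2 and si-Control, 0 genes of any of these lists were called with the block, and 6 of all 13317 tested genes (0.0451%). The smallest p belonged to SOD2 (−0.36, unadjusted p = 0.000332, adjusted p = 0.238, edgeR) and NFKBIA (−0.49, unadjusted p = 0.000543, adjusted p = 0.274, edgeR).

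**Figure D5:**
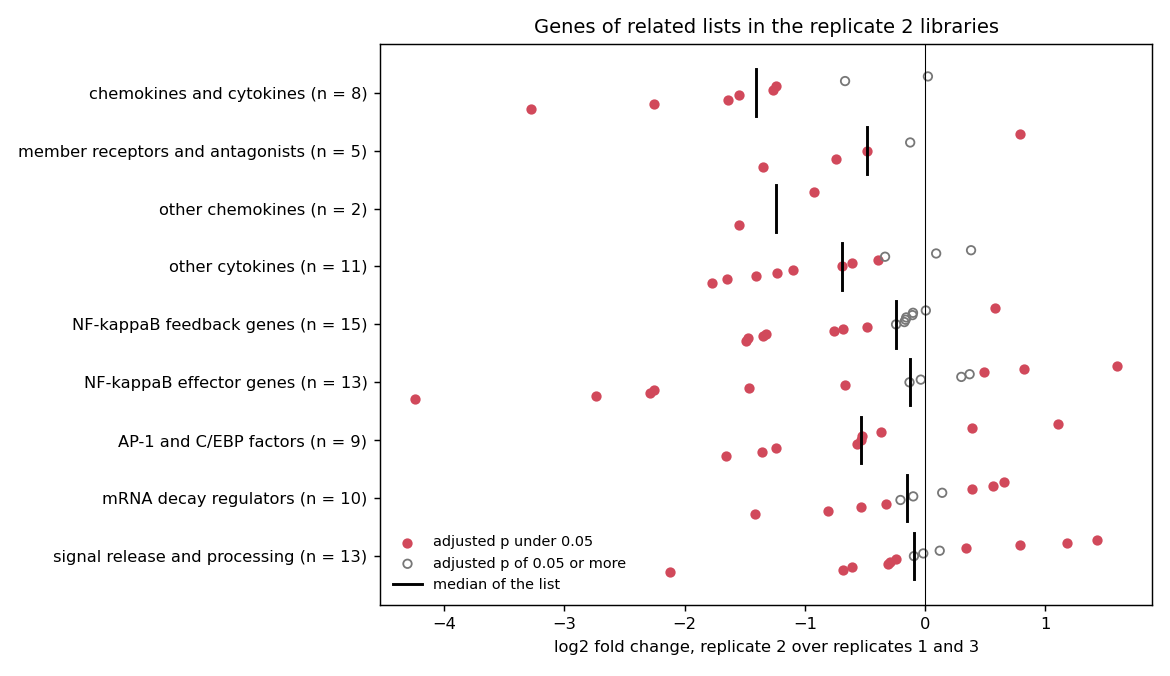
Log2 fold change of replicate 2 over replicates 1 and 3 for the tested genes of the chemokine and cytokine list and of 8 related lists; each point is a gene, filled where the adjusted p in edgeR was under 0.05, and black bars are list medians. The chemokine and cytokine median is −1.41, that of the NF-kappaB feedback genes −0.24 and that of the effector genes −0.13.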

How the data were processed

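The authors deposited raw read counts and FPKM per gene and library, the FPKM made with StringTie 2.1.6 and ballgown. The submitters' notes also name DESeq2 and edgeR without versions. No source used here gives the aligner, build, annotation or strand setting. Of the table's 31348 gene IDs, 30462 overlapped their GENCODE 29 gene (GRCh38) on the same strand. The deposited FPKM set the filter and the levels per length, and the counts were tested in edgeR 4.0.16 (TMM, glmQLFit, glmQLFTest, Benjamini-Hochberg over 13317 genes, R 4.3.3), with siRNA alone or with the replicate number. CPM is TMM-normalized. Intervals are 95% and exact, and cover counting error only.

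Deviations from the group means went together in same-numbered libraries (correlations 0.527, 0.687 and 0.562, highest other 0.0494), so the numbers were taken to pair the samples. No library pair agreed within sampling noise. Of each related list up to 3 genes with the smallest p for the replicate number and 2 for the siRNA with the block are named. The members, lists and comparisons were chosen with earlier results of these data known. Alternatives used DESeq2 1.42.0, limma 3.58.1 on log2(FPKM + 1) and log2(FPKM + 0.1), other filters and size factors, and each library left out. Columns were matched to samples by the descriptions in the labels. Figures were drawn with matplotlib.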

Additional observations from a re-analysis of the deposited data

How the results depend on the processing

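The lower IL6, CXCL8, CXCL1, CXCL2 and CCL2 of replicate 2 were called in all 12 alternatives run for each. For si-SRPX2 against si-Control the 0 called genes became 3 in DESeq2, 6 with the replicate block, and with the block 79 without both replicate 2 libraries, 15 without both replicate 1 libraries, 213 without both replicate 3 libraries and 89 in DESeq2. CXCL8 and CCL2, 2 of the 8 genes, were called in those fits with 79, 213 and 89 genes, and the replicate block alone, with all libraries in edgeR, changed no call among the 8. For replicate 1 against replicate 3 the 2145 genes became 396 without the filter (1 of the 8 genes), 1321 in limma on log2(FPKM + 1) and 1193 on log2(FPKM + 0.1), and 618 to 2838 without 1 library (2 to 5 of the 8). The cause of these changes was not tested.

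Several uncalled values turned. The siRNA difference of CXCL1 was 0.0120 and 0.0137 in limma with pseudocounts of 1 and 0.1, 0.0885 in the block fit without replicate 1 and 0.16 without replicate 3. CXCL2 had 0.0141 in the block fit without replicate 2 and 0.17 without replicate 3, CXCL3 −0.11 without replicate 1, IL6 0.11 without replicate 3, and IL1A −0.33 without replicate 2 and −0.12 without replicate 3. Without 1 library at a time, and no block, the siRNA difference ranged over −0.59 to 0.32 for CXCL1, −0.46 to 0.63 for CXCL2, −0.00122 to 1.0 for CXCL3, −0.79 to 0.53 for IL6, −0.46 to 0.36 for IL1A and −0.23 to 0.0851 for LIF. These fits left replicate numbers unbalanced between the groups. Likewise LIF in replicate 2 against replicates 1 and 3 ranged over −0.0290 to 0.0740, and in replicate 1 against replicate 3 CXCL3 over −1.36 to 0.0274 and CXCL8 over −0.25 to 0.34, with −0.00236 and −0.00427 for CXCL8 in limma. Counting error limits CCL20 and IL1B, at no more than 51 and 194 reads in a library.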
